A study of Homo sapiens with 14 samples.

Results

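The genes described here make, take up and break down hyaluronan, and 6 were chosen by name: the synthases HAS2 and HAS3, the precursor enzyme UGDH, the receptors CD44 and HMMR, and the hyaluronidase HYAL2. HAS3 was included because it was lower in both experiments of the study, so the changes of these genes below are descriptions and carry no test. Of the 6 genes, 5 were listed in both tables of transcript levels, among 14951 genes common to the tables, and HAS2 is not analysed here. All 10 RNA-seq libraries came from UM1, an established cell line from a squamous carcinoma of the human tongue. In the knockdown experiment, 2 libraries of cells with a short hairpin against PRMT5 (shPRMT5) were set against 2 libraries of cells with a hairpin against GFP (shGFP). In the overexpression experiment, 3 libraries of cells overexpressing ΔNp63α, a product of the TP63 gene, were set against 3 libraries of cells with the vector. The series asks how PRMT5, an arginine methyltransferase, acts on gene regulation by ΔNp63α. The promoter that drives the construct, the number of hairpins and whether the lines are clones or pools are unstated in the labels. The titles call the replicates biological, no label ties them to separate cultures, and the p-values below reflect how much these libraries vary, possibly for technical reasons alone.

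Hyaluronan is a long sugar chain of the pericellular matrix, abundant around squamous epithelial cells. Synthases in the cell membrane build it from the UDP-sugars of glucuronate and N-acetylglucosamine, UGDH supplies the glucuronate, and CD44 and HMMR bind the finished chain. Hyaluronidases such as HYAL2 at the cell surface and HYAL1 in the lysosome cut it down again. ΔNp63 has been described in head and neck squamous carcinoma as acting on genes of this pathway, among them HAS3, CD44 and HYAL1. That work was not compared with the values below, in direction or in size.

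Values are TPM, a transcript abundance per fixed library total, which is scaled per transcript length so that levels can be set side by side between genes of a library. TPM keeps no absolute depth, which is unknown here, and bulk values cannot tell fewer cells of a type apart from less RNA per cell. PRMT5 stood at 29.3 and 33.6 TPM in shPRMT5 cells, against 143 and 126 TPM in shGFP cells. TP63 stood at 152, 160 and 168 TPM under ΔNp63α, against 138, 82.3 and 97.3 TPM with vector (log2 fold 0.62, limma adjusted p = 0.03). In shPRMT5 cells TP63 was at a log2 fold of 0.02 (limma adjusted p = 0.952). PRMT5 was also higher under ΔNp63α, at 131, 97.0 and 118 TPM, against 95.4, 61.1 and 68.6 TPM with vector (log2 fold 0.63, limma adjusted p = 0.0325). Of the 14 alternative fits, 6 did not call this rise of TP63 and 5 did not call that of PRMT5. All 7 squamous markers checked were listed in both tables, with summed levels of 12900 to 13000 TPM in shPRMT5 cells, 12400 to 13800 TPM in shGFP cells, 17900 to 32800 TPM under ΔNp63α and 7360 to 13700 TPM with vector. Single markers differed. In shPRMT5 cells the basal keratin KRT5 rose (log2 fold 0.90, limma adjusted p = 2.3e-05) and no other squamous marker was called. KRT14, KRT6A and SFN were at -0.23, -0.25 and -0.17 there, and TP63, CDH1 and DSG3 at 0.02, 0.50 and 0.52. Under ΔNp63α KRT5 rose (1.45, limma adjusted p = 0.00149), as did KRT14 (1.94, limma adjusted p = 0.000617). KRT14 alone was at 10200 to 18900 TPM there, against 2500 to 5570 TPM with vector. The cadherin CDH1 fell under ΔNp63α (-0.68, limma adjusted p = 0.014), and KRT6A, DSG3 and SFN were at 0.80, 0.43 and -0.37, not called. None of 4 leukocyte markers was listed in either table. Of 5 fibroblast markers, COL1A1 and LUM were listed, and their sum was 8.82 to 10.8 TPM in shPRMT5 cells and 6.29 to 8.33 TPM in shGFP cells. The same sum was 42.2 to 61.4 TPM under ΔNp63α and 29.2 to 37.8 TPM with vector. LUM rose under ΔNp63α (log2 fold 0.97, limma adjusted p = 0.0307), COL1A1 was at a log2 fold of 0.10 (limma adjusted p = 0.727), and the part of these markers in the results below was not tested. The endothelial marker CDH5 was listed in neither table, and the listed markers of that list summed to 0.988 to 1.08 TPM in shPRMT5 cells, 0.789 to 1.39 TPM in shGFP cells, 0.846 to 1.23 TPM under ΔNp63α and 0.728 to 1.33 TPM with vector.

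HAS3, which extrudes hyaluronan through the cell membrane, was the member with the largest differences in both experiments. It stood at 11.4 and 12.1 TPM in shPRMT5 cells, against 39.7 and 34.6 TPM in shGFP cells. Each shPRMT5 library thus lay below each shGFP library, and the mean in shPRMT5 cells was 31.6% of that in shGFP cells. Under ΔNp63α it stood at 4.01, 4.08 and 3.32 TPM, against 14.8, 15.9 and 22.3 TPM with vector. Again the groups did not overlap, the ΔNp63α libraries differed little among themselves, and their mean was 21.5% of the vector mean. On the log2(TPM + 1) scale, which understates the change of low genes, the difference was -1.58 (SE 0.21) for shPRMT5 over shGFP. It was -1.94 (SE 0.20) for ΔNp63α over vector. This put HAS3 at rank 26 from the lowest of 12635 genes in the knockdown and at rank 105 of 13382 in the overexpression. A log2 fold of -1 or lower in both experiments was held by 39 of the 11999 genes tested in both, or 0.325%. These values are part of why the gene was chosen, so nothing is read from its rank.

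**Figure D1:**
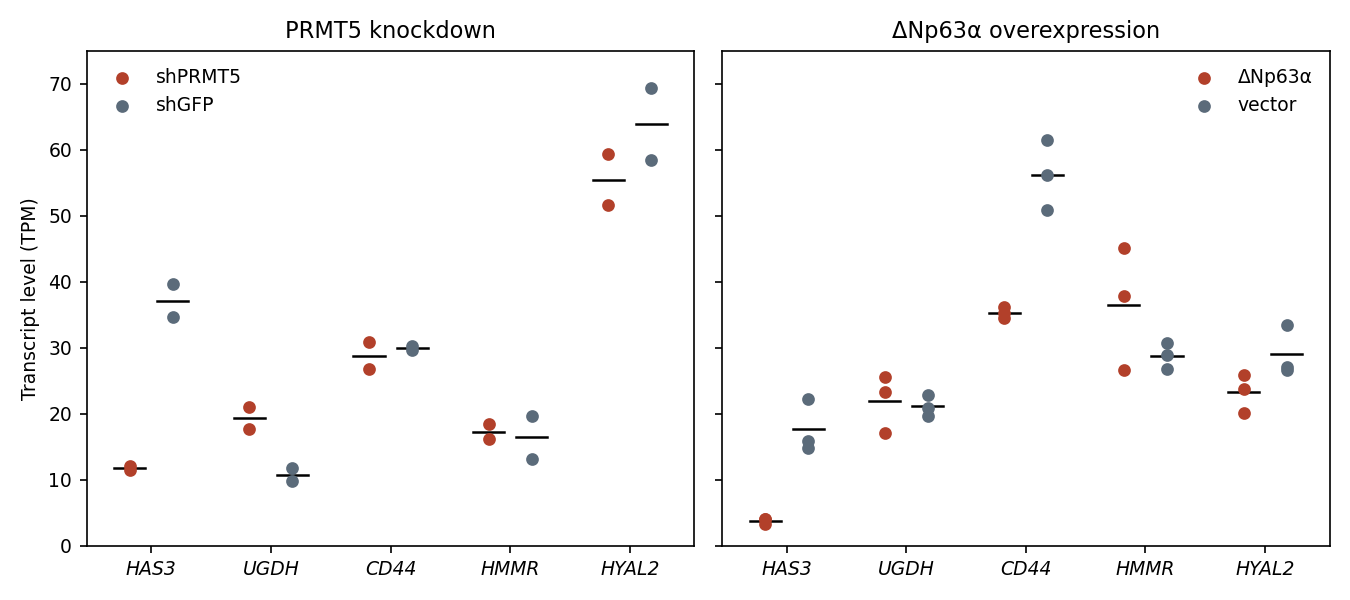
Transcript level (TPM) of the 5 listed hyaluronan genes in each library of the knockdown experiment (left panel, shPRMT5 beside shGFP) and of the overexpression experiment (right panel, ΔNp63α beside vector). Points are libraries and bars are group means; HAS3 lies at 11.4 to 12.1 TPM in shPRMT5 cells against 34.6 to 39.7 TPM in shGFP cells, and at 3.32 to 4.08 TPM under ΔNp63α against 14.8 to 22.3 TPM with vector.

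In the RefSeq gene table HAS3 lies on chromosome 16 and overlaps CHTF8, DERPC and TANGO6, and no source used here says whether the counting used strand. TANGO6, a protein of Golgi organisation, stood at 26.9 and 34.1 TPM in shPRMT5 cells, against 28.3 and 27.4 TPM in shGFP cells, and at 23.9, 25.3 and 23.0 TPM under ΔNp63α, against 28.3, 13.3 and 20.1 TPM with vector. Its groups overlapped in both experiments, unlike those of HAS3. CHTF8 stayed at 0.592 TPM or below in every library of both tables. The promoter of HAS3 is printed because the gene was lower in both experiments, and that of HMMR because it holds motifs known from cell cycle genes, which are described further on. Both are RefSeq sequences of build GRCh38.p14, from 250 bases before the start of the gene to 50 after it, written from 5′ to 3′ on the strand of the gene. HAS3 is at chr16:69107290-69107589 and HMMR at chr5:163460382-163460681, both on the plus strand. Capitals in HMMR mark CCAAT and TTTGAA on either strand.
HAS3: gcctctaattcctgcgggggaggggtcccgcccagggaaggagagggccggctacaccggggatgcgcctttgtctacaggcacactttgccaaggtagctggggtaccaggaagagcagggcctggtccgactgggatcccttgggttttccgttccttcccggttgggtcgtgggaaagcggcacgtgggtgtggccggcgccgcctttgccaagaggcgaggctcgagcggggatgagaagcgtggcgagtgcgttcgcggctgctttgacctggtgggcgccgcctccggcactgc
HMMR: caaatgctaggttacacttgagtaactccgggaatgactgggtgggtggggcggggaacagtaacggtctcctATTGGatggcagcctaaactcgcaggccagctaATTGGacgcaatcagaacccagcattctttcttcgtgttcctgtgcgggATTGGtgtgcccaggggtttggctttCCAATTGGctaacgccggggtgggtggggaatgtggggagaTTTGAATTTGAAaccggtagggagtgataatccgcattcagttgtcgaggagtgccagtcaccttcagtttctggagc

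A total of 4 motifs were searched on both strands: CATG followed after a gap of 6 bases by CATG (paired cores of the p53 family, to which p63 belongs), TGANTCA (AP-1), TTTGAA (the CHR element of cell cycle genes) and CCAAT. They occur in 0.373%, 7.71%, 15.2% and 34.6% of 35116 RefSeq promoters of this length. None of them occurs in this window of HAS3, UGDH, CD44 or HYAL2. HMMR holds TTTGAA at 2 adjacent places, starting 28 and 22 bases before the gene, and CCAAT at 5 places, of which the pair starting 69 and 66 bases before it overlaps on opposite strands. The G and C share of the HAS3 promoter is 67.0% and that of HMMR 53.3%, against a median of 58.7% over all promoters. A missing match says only that these letters are not in this window.

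HAS1, the remaining synthase, was listed in the knockdown table alone, at 0.358 and 0.226 TPM in shPRMT5 cells and 0.902 and 0.347 TPM in shGFP cells, under the mean of 1 TPM required for testing. HAS3 was thus the synthase that passed this filter in both tables. The ratio of HAS3 to UGDH was 0.642 and 0.576 in shPRMT5 cells, against 4.06 and 2.95 in shGFP cells. The same ratio was 0.236, 0.159 and 0.143 under ΔNp63α, against 0.749, 0.765 and 0.975 with vector. The ratio of HAS3 to HYAL2 was 0.192 and 0.234 in shPRMT5 cells, against 0.572 and 0.593 in shGFP cells, and 0.155, 0.203 and 0.140 under ΔNp63α, against 0.442, 0.590 and 0.838 with vector. Neither ratio overlapped between groups, and since HAS3 was chosen for its lower level, these ratios are a description of that level beside the other members and no further evidence of it.

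UGDH, the dehydrogenase that turns UDP-glucose into UDP-glucuronate, stood at 17.7 and 21.0 TPM in shPRMT5 cells, against 9.76 and 11.7 TPM in shGFP cells. The shPRMT5 libraries lay above the shGFP libraries, with a log2 difference of 0.79 (SE 0.23), opposite in direction to HAS3. The median of all genes was itself at 0.25 in this comparison, and rescaling the libraries by median of ratios moved it by -0.24. UGDH lay 0.55 above that median, at 0.53 after rescaling and at 0.49 after quantile normalization. Under ΔNp63α the gene stood at 17.0, 25.6 and 23.3 TPM, against 19.7, 20.8 and 22.9 TPM with vector, and the groups overlapped (log2 difference 0.03, SE 0.18).

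The lists of related genes below were chosen with earlier results of these data known, so their shares of called genes are descriptions. The other enzymes chosen as suppliers of the UDP-sugars of hyaluronan numbered 9, all tested in both experiments. In shPRMT5 cells 3 were higher and 0 lower by limma, against 15.1% and 3.48% of all genes, and the median log2 fold of the list was 0.24 beside 0.25 for all genes. GFPT1, which opens the hexosamine pathway that leads to N-acetylglucosamine, averaged 11.9 ± 1.95 TPM in shPRMT5 cells and 6.53 ± 0.632 TPM in shGFP cells (SD, n = 2 each; log2 fold 0.77, limma adjusted p = 0.0319). The acetyltransferase GNPNAT1 (log2 fold 0.63, limma adjusted p = 0.0283) and PGM2, a phosphoglucomutase by name (log2 fold 0.67, limma adjusted p = 0.0362), were the others. All 3 calls ended after rescaling, at log2 folds of 0.52 for GFPT1, 0.35 for GNPNAT1 and 0.40 for PGM2, and without either shPRMT5 library. They also ended after quantile normalization, with no filter on low values and with no trend, and that of PGM2 in 1 fit over both tables. With 1 library left out the log2 folds ranged from 0.62 to 0.92 for GFPT1, from 0.51 to 0.75 for GNPNAT1 and from 0.32 to 1.02 for PGM2, and GFPT1 and PGM2 also lost their calls without shGFP replicate 1.

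Under ΔNp63α 0 of these 9 supply enzymes were higher and 3 lower, against 7.34% and 14.1% of all genes, and the list's median log2 fold was -0.33 beside -0.04 for all genes. GFPT2, the second enzyme at the head of the hexosamine pathway, fell to 11.0 ± 1.81 TPM under ΔNp63α, against 29.6 ± 9.88 TPM with vector (SD, n = 3 each); limma gave a log2 fold of -1.31 with an SE of 0.23 and an adjusted p of 0.00199. PGM1, a phosphoglucomutase, fell to 55.2 ± 3.65 TPM under ΔNp63α, against 103 ± 19.1 TPM with vector (log2 fold -0.87, limma adjusted p = 0.00354). GFPT1 also fell (18.7 TPM under ΔNp63α against 29.3 TPM with vector, log2 fold -0.62, limma adjusted p = 0.0416), but its call ended after rescaling (log2 fold -0.54) and without any 1 library other than vector replicate 1, at log2 folds from -0.75 to -0.46. The GFPT1 call also ended after quantile normalization, with no filter on low values and with no trend. GNPNAT1 was at 56.1 ± 9.56 TPM under ΔNp63α and 41.2 ± 3.32 TPM with vector, where the groups did not overlap (log2 fold 0.43, limma adjusted p = 0.0901), and was called higher in 4 of the 14 alternative fits, at 0.51 after rescaling.

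UDP-glucuronate also feeds the synthesis of heparan and chondroitin sulfate, and 15 of the 18 genes chosen around that synthesis passed the filter in each experiment. Not all of these genes use UDP-glucuronate themselves. In shPRMT5 cells 4 were higher and 2 lower, against 15.1% and 3.48% of all genes, with a median log2 fold of 0.25, as for all genes. SLC35D1, which carries UDP-glucuronate across internal membranes, averaged 12.3 ± 3.32 TPM in shPRMT5 cells and 4.15 ± 0.358 TPM in shGFP cells (SD, n = 2 each); limma gave a log2 fold of 1.35 with an SE of 0.26 and an adjusted p of 0.00115. The chondroitin enzymes CSGALNACT2 (log2 fold 0.87, limma adjusted p = 0.0302) and CHSY1 (log2 fold 0.82, limma adjusted p = 0.0323) were higher, whereas XYLT2, a xylosyltransferase that starts the chains, was lower (log2 fold -0.69, limma adjusted p = 0.0245). The remaining calls were the chondroitin polymerising factors CHPF2, which was higher (log2 fold 0.67, limma adjusted p = 0.0136), and CHPF, which was lower (log2 fold -0.50, limma adjusted p = 0.0269). CSGALNACT2, CHSY1 and CHPF2 were at 0.65, 0.58 and 0.40 after rescaling, where none of the 3 was called. Without shPRMT5 replicate 2, SLC35D1 was at 1.09, and it lost its call there, as did all the genes of this list. XYLT2 and CHPF also lost their calls without shPRMT5 replicate 1 or shGFP replicate 1, CHPF2 without shPRMT5 replicate 1, CSGALNACT2 without either shGFP library and CHSY1 without shGFP replicate 2. After quantile normalization SLC35D1 and XYLT2 kept their calls and the other named genes of this list lost theirs. XYLT2, CHPF and CHSY1 were also not called with no filter on low values or with no trend, and CSGALNACT2 with no filter. Over the libraries left out XYLT2 ranged from -0.88 to -0.49, CHPF from -0.71 to -0.28, CHPF2 from 0.48 to 0.87, CSGALNACT2 from 0.68 to 1.07 and CHSY1 from 0.60 to 1.05.

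Under ΔNp63α 1 of these 15 genes was higher and 6 were lower, against 7.34% and 14.1% of all genes, with a median log2 fold of -0.45 beside -0.04 for all genes. EXT1 and EXT2, which together polymerise heparan sulfate, fell to 12.7 ± 1.97 and 6.90 ± 0.485 TPM under ΔNp63α, against 41.2 ± 5.68 and 16.0 ± 2.10 TPM with vector (SD, n = 3 each). Their log2 folds were -1.62 (limma adjusted p = 9.46e-05) and -1.10 (limma adjusted p = 0.00106). CHPF fell by 1.07 and XYLT2 by 1.03 on the log2 scale (limma adjusted p = 0.000262 and 0.00158). These 4 genes were called in each of the 14 alternative fits, and for each the ΔNp63α libraries lay below the vector libraries. The other calls were CSGALNACT2 and B3GAT3, which fell by 0.72 and 0.46 on the log2 scale (limma adjusted p = 0.0151 and 0.0479), and EXTL2, which rose by 0.62 (limma adjusted p = 0.0481). CSGALNACT2 lost its call without vector replicate 3 (-0.68). B3GAT3 lost its call after rescaling (-0.37) and without any library but vector replicate 1 (-0.51 to -0.36 over the libraries left out), and EXTL2 without any but ΔNp63α replicate 1 (0.48 to 0.82).

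CD44, the main cell surface receptor of hyaluronan, stood at 26.8 and 30.8 TPM in shPRMT5 cells, against 29.7 and 30.2 TPM in shGFP cells. These groups overlapped, and the log2 difference of -0.06 (SE 0.20) was -0.33 after rescaling and 0.04 without shPRMT5 replicate 1. Under ΔNp63α CD44 stood at 35.3, 36.1 and 34.5 TPM, against 56.2, 50.8 and 61.4 TPM with vector. The ΔNp63α libraries lay within 2 TPM of each other and below each vector library, at 62.9% of the vector mean (log2 difference -0.65, SE 0.15). These are totals over all transcripts of the gene, so the spliced forms of CD44 are not separated. CD44 overlaps CD44-AS1 in the RefSeq gene table, which was not analysed here.

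Genes that splice, anchor or cleave CD44 numbered 12, of which 9 were tested in the knockdown and 10 in the overexpression. In shPRMT5 cells 2 were higher and 0 lower, or 22.2% called, close to the 18.6% of all genes. RDX (radixin), which ties CD44 to the actin cytoskeleton, rose to 37.5 ± 3.96 TPM in shPRMT5 cells, against 12.2 ± 2.22 TPM in shGFP cells (SD, n = 2 each); limma gave a log2 fold of 1.55 with an SE of 0.22 and an adjusted p of 2.61e-05. RDX was called in all 12 alternative fits. The membrane protease MMP14, which can shed CD44, rose to 232 ± 12.7 TPM in shPRMT5 cells, against 167 ± 33.9 TPM in shGFP cells (log2 fold 0.48, limma adjusted p = 0.0369). Its call ended after rescaling, at 0.20, and without shGFP replicate 2 or either shPRMT5 library, at log2 folds between 0.28 and 0.69 over the libraries left out. The MMP14 call also ended after quantile normalization, with no filter on low values, with no trend and in 1 fit over both tables.

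Under ΔNp63α 2 of these CD44 partners were higher and 4 lower, against 7.34% and 14.1% of all genes, with a median log2 fold of -0.37. MMP14 fell to 67.8 ± 11.7 TPM under ΔNp63α, against 167 ± 12.1 TPM with vector (SD, n = 3 each); limma gave a log2 fold of -1.30 with an SE of 0.16 and an adjusted p of 0.00021. The sheddase ADAM10 fell to 9.78 ± 1.81 TPM under ΔNp63α, against 21.4 ± 2.16 TPM with vector (log2 fold -1.06, limma adjusted p = 0.00186). ESRP2, an epithelial splicing factor that favours the variable exons of CD44, was higher at 17.6 ± 2.08 TPM under ΔNp63α, against 9.03 ± 3.56 TPM with vector (log2 fold 0.94, limma adjusted p = 0.0141). The related ESRP1 also rose (log2 fold 0.84, limma adjusted p = 0.013), and the linker MSN (moesin) fell (log2 fold -0.68, limma adjusted p = 0.0213). The call of ESRP2 ended without ΔNp63α replicate 1 or vector replicate 3, and its log2 fold ranged from 0.75 to 1.21 with 1 library left out. The call of ESRP1 ended without ΔNp63α replicate 3 or vector replicate 3 (0.76 and 0.77), and that of MSN without ΔNp63α replicate 2 or 3 or vector replicate 3 (-0.58, -0.71 and -0.63).

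HMMR, a hyaluronan receptor that inside the cell serves the mitotic spindle, stood at 18.4 and 16.2 TPM in shPRMT5 cells, against 13.2 and 19.7 TPM in shGFP cells. The shPRMT5 libraries lay between the shGFP libraries, and the log2 difference of 0.09 (SE 0.23) turned to -0.17 after rescaling and -0.20 after quantile normalization. Under ΔNp63α HMMR stood at 26.6, 45.1 and 37.9 TPM, against 30.7, 26.7 and 28.9 TPM with vector. HMMR overlaps the antisense gene HMMR-AS1 in the RefSeq gene table, which was not analysed here. The ΔNp63α libraries were spread more widely than the vector libraries and overlapped them (log2 difference 0.30, SE 0.19).

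Of 17 tested spindle and mitotic genes set beside HMMR, 10 were higher and 0 lower in shPRMT5 cells, against 15.1% and 3.48% of all genes, with a median log2 fold of 0.62 beside 0.25 for all genes. TPX2, the spindle factor that HMMR works with, rose to 254 ± 22.0 TPM in shPRMT5 cells, against 139 ± 10.3 TPM in shGFP cells (SD, n = 2 each; log2 fold 0.87, limma adjusted p = 0.000548). The proliferation marker MKI67 rose by a log2 fold of 1.11 (limma adjusted p = 0.00414), the kinase AURKA by 0.76 (limma adjusted p = 0.00316) and the spindle motor KIF11 by 0.79 (limma adjusted p = 0.0314). HMMR itself lay below the median of all genes, by -0.15 on the log2 scale. After rescaling 2 of the 17 genes were called, TPX2 and MKI67, while AURKA was at 0.48 and not called. Without shPRMT5 replicate 1 the called genes numbered 4. Without shPRMT5 replicate 2 TPX2, MKI67 and AURKA were not called, at log2 folds of 0.78, 0.91 and 0.68, nor was any other gene of the list. KIF11 also lost its call after rescaling (0.54) and without shGFP replicate 1 or shPRMT5 replicate 1, with log2 folds between 0.46 and 1.13. With no trend KIF11 and AURKA were not called, and KIF11 was also not called with no filter on low values or after quantile normalization. Under ΔNp63α 2 of the same 17 genes were higher and 0 lower, against 7.34% and 14.1% of all genes, with a median of 0.14. They were the dynein light chain DYNLL1 (log2 fold 0.64, limma adjusted p = 0.0105), which was not called without vector replicate 3 (0.54), and cyclin B1, CCNB1 (log2 fold 0.43, limma adjusted p = 0.0397), which kept its call without vector replicate 1 but lost it without each of the others, and ranged from 0.38 to 0.50. CCNB1 was also not called there with no trend.

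HYAL2, the hyaluronidase anchored at the cell surface, stood at 59.3 and 51.6 TPM in shPRMT5 cells, against 69.4 and 58.4 TPM in shGFP cells. The groups overlapped, and the log2 difference was -0.20 (SE 0.18) and -0.48 after rescaling. Under ΔNp63α HYAL2 stood at 25.9, 20.1 and 23.8 TPM, against 33.4, 27 and 26.6 TPM with vector. Here the groups did not overlap, but the highest ΔNp63α library lay close to the lowest vector library, and the log2 difference was -0.31 (SE 0.17).

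HYAL1, the lysosomal hyaluronidase, went in opposite directions in the experiments. It rose to 42.8 ± 0.927 TPM in shPRMT5 cells, against 23.5 ± 3.29 TPM in shGFP cells (SD, n = 2 each); limma gave a log2 fold of 0.84 with an SE of 0.20 and an adjusted p of 0.00555. It fell to 19.5 ± 2.57 TPM under ΔNp63α, against 37.9 ± 3.40 TPM with vector (SD, n = 3 each); limma gave a log2 fold of -0.93 with an SE of 0.16 and an adjusted p of 0.00206. The fall was called in all 14 alternative fits, whereas the rise in shPRMT5 cells was not called after rescaling (0.57) or without either shPRMT5 library, with log2 folds between 0.70 and 0.98 over the libraries left out. After quantile normalization (0.62) the rise was also not called. The difference between the experiments was not tested. Of 7 genes of hyaluronan breakdown, 6 were tested. In shPRMT5 cells 1 was higher and 0 lower, or 16.7% called, close to the 18.6% of all genes. Under ΔNp63α 1 was higher and 3 lower, against 7.34% and 14.1% of all genes, and the list's median log2 fold was -0.59. GUSB, the glucuronidase that trims the fragments, fell to 48.3 ± 2.09 TPM under ΔNp63α, against 82.6 ± 6.67 TPM with vector (log2 fold -0.76, limma adjusted p = 0.00315). TMEM2, a membrane protein also named CEMIP2 and linked to hyaluronan breakdown, fell to 3.01 ± 0.397 TPM under ΔNp63α, against 5.99 ± 1.59 TPM with vector (log2 fold -0.78, limma adjusted p = 0.0241). HYAL3 rose to 16.8 ± 3.53 TPM under ΔNp63α, against 9.40 ± 2.89 TPM with vector (log2 fold 0.79, limma adjusted p = 0.0259). The level of HYAL3 is uncertain, since it overlaps the gene listed as NAT6. NAT6 went the other way, at 15.0 ± 0.875 TPM under ΔNp63α and 23.9 ± 2.91 TPM with vector (log2 fold -0.63, limma adjusted p = 0.0175). The part of this overlap in the HYAL3 values was not tested. TMEM2 lost its call without ΔNp63α replicate 1 or 2 or vector replicate 3 (log2 folds from -0.96 to -0.62 over the libraries left out), and HYAL3 without ΔNp63α replicate 1 or vector replicate 2 or 3 (0.63 to 1.01).

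Of 18 further synthase and binder genes, 5 passed the filter in each experiment. In shPRMT5 cells limma called 0 of the 5, 0 had an unadjusted p under 0.05, and those with the smallest p were HAPLN3, a link protein, and HABP4, at log2 folds of 0.25 and 0.26 (limma adjusted p = 0.508 and 0.527). Under ΔNp63α HAPLN3 fell to 2.37 ± 0.0912 TPM, against 9.97 ± 0.314 TPM with vector (SD, n = 3 each); limma gave a log2 fold of -1.70 with an SE of 0.18 and an adjusted p of 6.44e-05. HAPLN3 was called in all 14 alternative fits. C1QBP, which binds hyaluronan in vitro and resides mainly in mitochondria, rose to 839 ± 56.8 TPM under ΔNp63α, against 548 ± 96.8 TPM with vector (log2 fold 0.62, limma adjusted p = 0.0131). Its call ended without ΔNp63α replicate 1 or 3 or vector replicate 3, with log2 folds from 0.52 to 0.76 over the libraries left out.

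**Figure D2:**
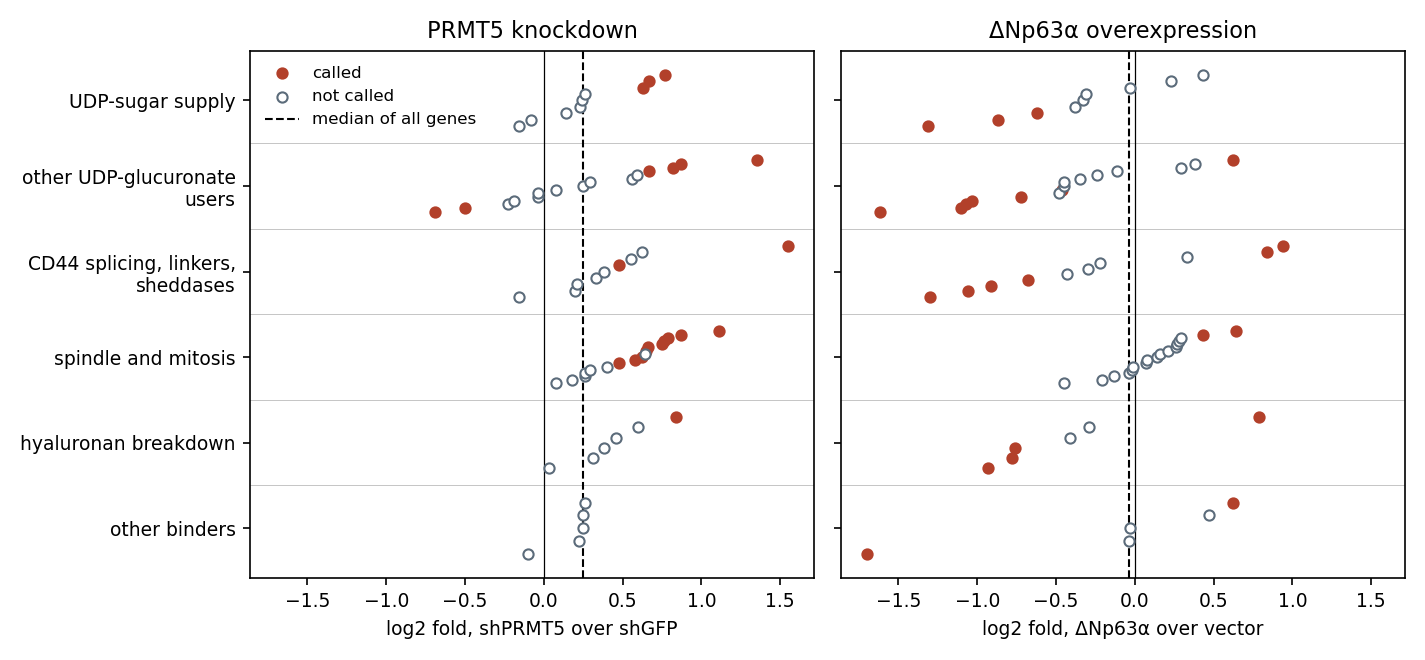
Log2 fold of each tested gene of 6 lists around the hyaluronan genes, for shPRMT5 over shGFP (left panel) and ΔNp63α over vector (right panel). The list labelled as other UDP-glucuronate users holds genes around heparan and chondroitin sulfate synthesis, not all of which use UDP-glucuronate. Filled points were called by limma (adjusted p under 0.05), open points were not, and the dashed line is the median of all genes, at 0.25 and -0.04; 20 genes were called higher and 2 lower in the left panel, and 7 higher and 17 lower in the right panel.

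The 6 lists were chosen with earlier results of these data known, so the shares called below are descriptions. Over these lists, which hold 82 genes without the members, 61 were tested in the knockdown and 62 in the overexpression. In shPRMT5 cells 20 were higher, 10 of them from the spindle and mitotic list, and 2 lower. This was 36.1% of those tested, against 18.6% of all genes. After rescaling 4 were higher and 2 lower, all of them among the first calls. Without shPRMT5 replicate 2 the higher genes numbered 1, which was RDX, and the lower genes 0, and without shPRMT5 replicate 1 they numbered 8 and 0. Without shGFP replicate 1 the lower genes also numbered 0. Under ΔNp63α 7 were higher and 17 lower, or 38.7%, against 21.5% of all genes, and after rescaling 8 were higher and 15 lower, with 7 and 15 shared. Under ΔNp63α the higher genes numbered 4, 3 and 4 without ΔNp63α replicate 1, ΔNp63α replicate 3 and vector replicate 2. Without vector replicate 3 the higher genes numbered 0 and the lower genes 12. Over all genes, 81.2% of the calls in shPRMT5 cells were higher, against 34.6% after rescaling, and under ΔNp63α 34.2% were higher, against 46.9% after rescaling. Genes called higher in shPRMT5 cells and lower under ΔNp63α were CSGALNACT2, GFPT1, HYAL1 and MMP14, those lower in both were CHPF and XYLT2, and CCNB1 was higher in both. CCNB1 in shPRMT5 cells (log2 fold 0.48, limma adjusted p = 0.0325) was not called after rescaling (0.20), without shGFP replicate 1 (0.23) or without either shPRMT5 library (0.52 and 0.44). It was also not called after quantile normalization (0.47).

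Among the 5 members, the count called by the same rule was 2 in shPRMT5 cells, HAS3 lower and UGDH higher, against 18.6% of all genes. It was also 2 under ΔNp63α, HAS3 and CD44, both lower, against 21.5%. Groups did not overlap for 2 members in the knockdown, against 63.0% of all genes (49.0% higher, 14.0% lower), and for 3 in the overexpression, against 37.9% (14.2% higher, 23.7% lower). Both comparisons had a part in the choice of the members, so nothing is read from these counts. Over the 12 and 14 alternative fits the log2 fold of HAS3 lay from -1.85 to -1.49 and from -2.17 to -1.77. UGDH left the count in shPRMT5 cells after rescaling, after quantile normalization, with no filter on low values or without shPRMT5 replicate 1 (0.91) or 2 (0.68). CD44 left it under ΔNp63α without ΔNp63α replicate 3 or vector replicate 3 (-0.63 and -0.58).

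**Figure D3:**
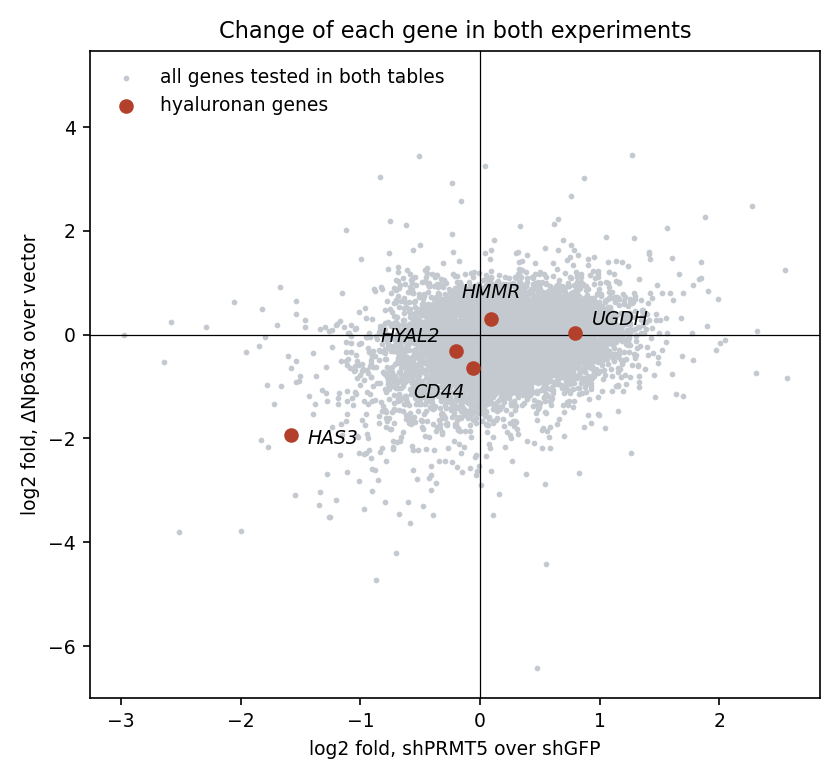
Log2 fold for shPRMT5 over shGFP (horizontal axis) against that for ΔNp63α over vector (vertical axis) for the 11999 genes tested in both tables (grey) and the 5 hyaluronan genes (red). HAS3, at -1.58 and -1.94, is the hyaluronan gene that is far below 0 on both axes. Measured from 0, UGDH is displaced along the horizontal axis only (0.79 and 0.03) and CD44 along the vertical axis only (-0.06 and -0.65). The median of all genes tested in the knockdown is 0.25, and CD44 lies at -0.30 from it.

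The order of the 5 group means changed with the condition, and single libraries did not always follow it. In shPRMT5 cells it was HYAL2 (55.4 TPM), CD44 (28.8), UGDH (19.3), HMMR (17.3) and HAS3 (11.7), where the ranges of UGDH and HMMR overlapped and those of the other neighbours did not. In shGFP cells it was HYAL2 (63.9 TPM), HAS3 (37.1), CD44 (29.9), HMMR (16.4) and UGDH (10.7), with no overlap between neighbours. HAS3 thus stood last in shPRMT5 cells and second in shGFP cells. Under ΔNp63α the order was HMMR (36.5 TPM), CD44 (35.3), HYAL2 (23.2), UGDH (21.9) and HAS3 (3.8), where HMMR and CD44 overlapped, as did HYAL2 and UGDH. With vector it was CD44 (56.1 TPM), HYAL2 (29.0), HMMR (28.8), UGDH (21.1) and HAS3 (17.7), where HYAL2 and HMMR overlapped, as did UGDH and HAS3. HAS3 was last in both groups of this experiment, but apart from its neighbour under ΔNp63α only. The tables were normalized separately, so levels are not compared between the experiments.

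The genes whose pattern was most like that of HAS3 over the 10 libraries were P3H2, a prolyl hydroxylase of collagen, SERINC2 and the secretory pathway kinase FAM20C. Likeness was the root mean square difference of log2(TPM + 1), centred within each table, and was 0.21, 0.23 and 0.26 for these genes, against a median of 0.98 over all genes. P3H2 had log2 folds of -1.02 in shPRMT5 cells and -1.98 under ΔNp63α, SERINC2 of -1.16 and -1.92, and FAM20C of -0.94 and -1.99. The closest gene was PRKAA1 for UGDH (0.04), CRTAP for CD44 (0.06), PREPL for HMMR (0.09) and TMUB2 for HYAL2 (0.05). The medians over all genes for these 4 members lay between 0.34 and 0.36. HAS3 varied by 0.92 (root mean square) around its table means, against 0.19 to 0.30 for the others.

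**Figure D4:**
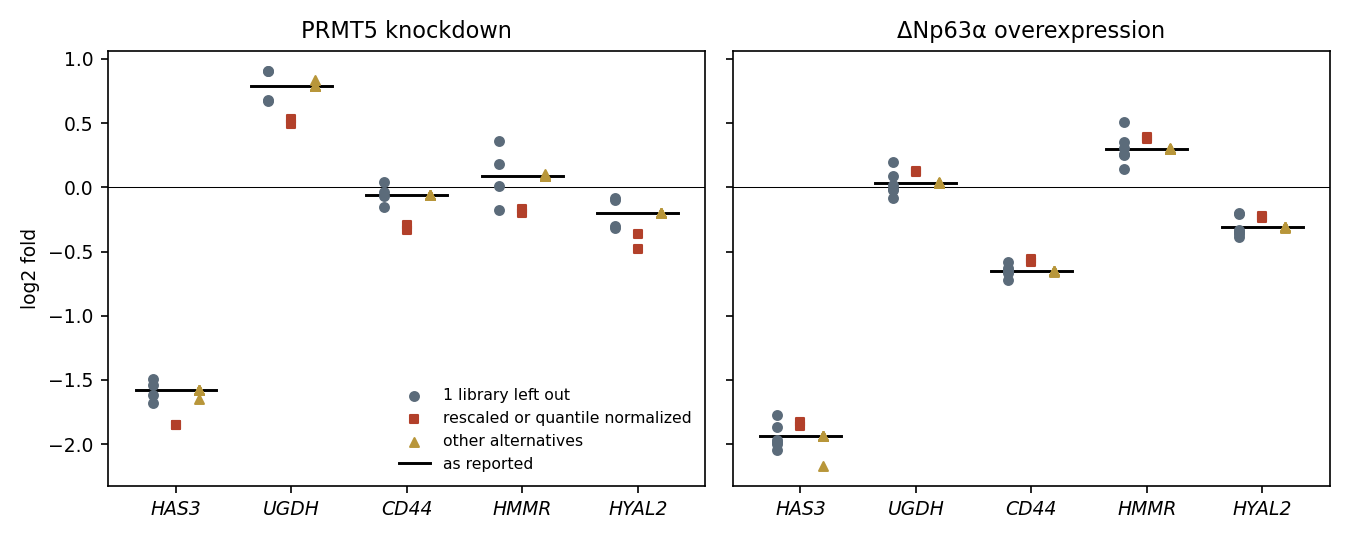
Log2 fold of the 5 hyaluronan genes as reported (black bars) and under each alternative fit (points: 1 library left out, rescaled or quantile normalized, other alternatives), for shPRMT5 over shGFP (left panel) and ΔNp63α over vector (right panel). HAS3 lies between -1.85 and -1.49 and between -2.17 and -1.77, while CD44 and HMMR in the left panel and UGDH in the right panel have points on both sides of 0.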

How the data were processed

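Total RNA of UM1 cells was sequenced, and the sample titles gave each library its group and number. The authors deposited TPM, 1 table an experiment, which sum to the same total in every library, so the depth is unknown. Per the submitters' processing notes, the tools were Bowtie, featureCounts, FastQC and DESeq2 1.24.0, with GRCh37 and hg19 as builds; no source used here says which made the TPM or whether strand was used. The tables list 16237 genes (knockdown) and 16137 genes (overexpression) and hold no value of 0, so a gene at 0 in any library is not listed. Mitochondrially encoded genes number 0 in the knockdown and 16 in the overexpression. Rows with no gene (2 and 1) were dropped. Gene IDs restored 9 symbols per table that had become dates, and matched the name table for 99.98% and 99.93% of genes. CUT&Tag data (4 samples) are not analysed here.

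Genes with a mean of at least 1 TPM over the libraries of a table were tested on log2(TPM + 1) with limma 3.58.1 in R 4.3.3 (trend over mean level, Benjamini-Hochberg adjustment over all genes tested, two-sided), and called at an adjusted p under 0.05. The fitting step was tested on simulated data with known folds in some genes. Those data held no overall shift between groups like that of the knockdown, so they cannot judge its effect. The genes described, the 6 lists around them and the tests were chosen with earlier results of these data known. Of each list, up to 4 called genes with the largest log2 fold were named in each comparison, or, with no call, the 2 of lowest p. CHPF2, ESRP1, MSN, EXTL2, B3GAT3, LUM and COL1A1 were named after their values were seen. The same holds for KRT5, KRT14, KRT6A, DSG3, SFN and CDH1, for CHPF and CCNB1 in the knockdown, and for CSGALNACT2 under ΔNp63α. The result of 1 gene of the CD44 list is not reported here. For the genes most like each member, 3 were named for HAS3 and 1 for each of the others. Alternatives were a smaller pseudocount (0.1), filtering at 5 TPM or not at all, rescaling by median of ratios, quantile normalization, no trend, 1 fit over both tables, the replicate number as a block, and each library left out. Same-numbered libraries correlated in their deviations by 0.09 in the knockdown, where both pairs give the same value by construction. In the overexpression they correlated by 0.32, 0.23 and 0.09, against -0.33 to 0.14 for other numbers. The labels state no pairing, so the main fits took none and the block is an alternative. Promoters are from RefSeq (GRCh38.p14), where 5 genes matched.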

Additional observations from a re-analysis of the deposited data

How the results depend on the processing

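The 20 list genes called higher in shPRMT5 cells became 4 after rescaling, 10 with no filter on low values, 7 with no trend and 6 after quantile normalization, and 1 to 23 with 1 library left out. The 2 called lower became 1 in 1 fit over both tables, 0 with no filter, 0 with no trend and 1 after quantile normalization, and 0 to 2 with 1 library left out. Under ΔNp63α the 7 called higher were 0 to 7 and the 17 called lower 12 to 18 with 1 library left out, and the other alternatives kept both counts within 1.5 times. With the replicate block the counts were 23 and 2 in the knockdown and 8 and 22 in the overexpression. The labels state no pairing of same-numbered libraries. In the knockdown their deviations correlated by 0.09, a single value, since with 2 libraries a group both pairs give it by construction. In the overexpression same-numbered libraries correlated by 0.32, 0.23 and 0.09, and libraries of other numbers by -0.33 to 0.14. Vector replicate 3 correlated with ΔNp63α replicate 2 by 0.14 and with its own number by 0.09. Whether the numbers pair the libraries was not tested. Of 17 list calls followed gene by gene in the knockdown, 1 held in every alternative, 11 ended after rescaling and 16 without shPRMT5 replicate 2; of 24 in the overexpression, 12 held in every alternative and 2 ended after rescaling. The cause of these changes was not tested, and a fit without 1 shPRMT5 or shGFP library leaves a lone library that is assumed to vary like the others. The depth behind the TPM is unknown, which limits what can be said of genes near 1 TPM.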
